A study of Homo sapiens with 4 samples.

Results

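The genes described here are the 8 E2F transcription factors, E2F1 to E2F8, and their DNA-binding partners TFDP1 and TFDP2, which encode the DP proteins. They are taken by gene name as the members of the family, which was itself picked with earlier results of these data known, and make up 10 of the 64252 rows of a deposited table of read counts per Ensembl gene. RNA was sequenced from cultures of SK-N-BE(2), a human neuroblastoma line with amplified MYCN. The groups were cells with a short hairpin RNA against IGF2BP3 (shIGF2BP3, 2 libraries) and cells with the control hairpin sh-NC (shControl, 2 libraries). The protein IGF2BP3 binds RNA, in part at the methyl mark m6A, and the series title links it to E2F2 mRNA. The libraries hold RNA levels and tell nothing of RNA half-life or of the mark itself. Hairpin sequences and their number are not in the labels, nor is any statement that replicates were separately grown, so every p-value rests on a spread between libraries that may be technical only.

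E2F factors bind DNA at promoters of genes needed for DNA synthesis and cell division, and most of them do so paired with a DP protein. E2F1, E2F2 and E2F3 activate these promoters once cyclin-dependent kinases have removed the retinoblastoma (pocket) proteins from them. E2F4 and E2F5 bring pocket proteins to the same promoters in resting cells and repress them, E2F6 represses through polycomb complexes without a pocket protein, and E2F7 and E2F8 bind DNA without DP and repress late in S phase. Several E2F genes carry E2F sites in their own promoters and are themselves induced as cells enter S phase.

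Upstream bases are shown for E2F1, E2F2, E2F3 and TFDP1 because these 4 genes held an E2F word there and were lower after knockdown. Of all tested genes 25.6% were lower, and the call of TFDP1 was lost in some alternative fits. The bases shown are the 250 before the start site, 5′ to 3′ on the gene's strand, from RefSeq on GRCh38.p14. Capitals mark an 8-base E2F word, one of TTTCGCGC, TTTGGCGC, TTTCCCGC and TTTGCCGC, read on either strand. The windows are chr20:33686386-33686635 on the minus strand for E2F1, chr1:23531234-23531483 on the minus strand for E2F2, chr6:20401629-20401878 on the plus strand for E2F3 and chr13:113584503-113584752 on the plus strand for TFDP1.
E2F1: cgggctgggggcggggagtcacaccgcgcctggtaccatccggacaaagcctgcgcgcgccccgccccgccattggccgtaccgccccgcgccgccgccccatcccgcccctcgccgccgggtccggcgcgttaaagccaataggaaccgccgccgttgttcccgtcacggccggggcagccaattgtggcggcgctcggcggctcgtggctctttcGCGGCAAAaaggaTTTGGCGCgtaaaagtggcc
E2F2: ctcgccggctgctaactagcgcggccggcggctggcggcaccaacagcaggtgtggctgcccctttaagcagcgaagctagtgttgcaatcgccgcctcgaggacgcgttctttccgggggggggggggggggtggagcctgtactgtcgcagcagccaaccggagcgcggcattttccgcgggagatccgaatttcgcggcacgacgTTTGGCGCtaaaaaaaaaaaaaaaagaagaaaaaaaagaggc
E2F3: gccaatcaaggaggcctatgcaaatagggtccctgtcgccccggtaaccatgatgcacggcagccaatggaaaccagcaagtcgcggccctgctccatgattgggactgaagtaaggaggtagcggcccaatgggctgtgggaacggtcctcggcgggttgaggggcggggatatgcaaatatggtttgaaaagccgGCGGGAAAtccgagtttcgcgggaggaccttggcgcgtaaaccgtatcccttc
TFDP1: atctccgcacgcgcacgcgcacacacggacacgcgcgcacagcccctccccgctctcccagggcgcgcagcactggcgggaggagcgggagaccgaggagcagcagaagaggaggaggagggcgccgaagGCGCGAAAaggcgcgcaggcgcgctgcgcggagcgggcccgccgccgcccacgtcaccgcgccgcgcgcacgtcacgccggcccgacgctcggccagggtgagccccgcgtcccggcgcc

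E2F1 held 2 E2F words, whose upstream ends lay 33 and 20 bases before the start site. In E2F2 a single word began 42 bases upstream, in E2F3 53 bases upstream and in TFDP1 120 bases upstream. Counted per gene, 4 of the 8 members with a RefSeq promoter entry held an E2F word (50%), against 928 of all 27305 genes with an entry (3.4%) scanned over the same 250 bases. Counted per entry, the word stood in 4 of the members' 11 entries (36.4%), against 979 of 35116 entries in all (2.79%). No E2F word was found in the windows of E2F4, E2F6, E2F7 and TFDP2. Of these, E2F7 alone passed the test for a change, as did 51.5% of all tested genes. Whether the word goes with a fall was not tested. The CCAAT box, read on either strand and found in 32% of all entries, occurred 3 times in E2F1, 4 times in E2F3, 4 times in E2F7 and 2 times in TFDP2. A second start site of E2F3 held no E2F word and 1 CACGTG, the E-box bound by MYC proteins, which 6.34% of all entries hold. E2F5 and E2F8 have no entry. A match describes letters only, and binding was not measured.

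**Figure D1:**
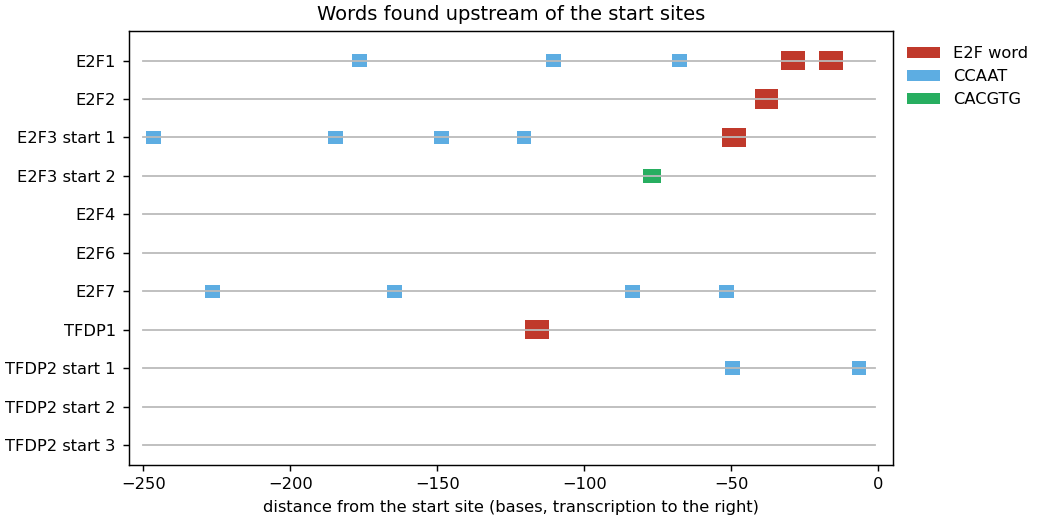
Positions of E2F words, CCAAT boxes and the CACGTG E-box in the 250 bases upstream of each start site of the 8 members with an entry; the x axis gives the distance from the start site in bases. The 2 E2F words of E2F1 and the single words of E2F2 and E2F3 lie within 53 bases of the start, and that of TFDP1 begins 120 bases upstream.

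The knockdown and the cell type were read first. The targeted gene IGF2BP3 had 813 and 875 counts after knockdown (shIGF2BP3), against 4215 and 4347 counts with the control hairpin (shControl), a log2 fold change of -2.28 (SE 0.09). Total counts lay between 26755695 and 31946756 per library. All 8 neuroblastoma markers were detected, with summed levels of 1840 to 1999 CPM in shIGF2BP3 and 2895 to 2966 CPM in shControl; 6 of them fell and 1 rose. CPM is a gene's count relative to the TMM-scaled library total. Of the 5 leukocyte markers CD3E and LYZ were at 0 counts in all 4 libraries, 1 of 2 tested fell, and the summed level was 2.41 to 3.32 CPM in shIGF2BP3 and 1.95 to 2.90 CPM in shControl. The 4 epithelial markers summed to 4.81 to 6.35 CPM in shIGF2BP3 and 7.63 to 9.10 CPM in shControl, and neither of the 2 tested passed. The 6 fibroblast markers, none of them at 0, summed to 534.8 to 550.8 CPM in shIGF2BP3 and 402.9 to 413.0 CPM in shControl; 3 of them rose and 1 fell. Over all tested genes 25.6% fell and 25.9% rose. The part of these markers in the E2F values was not tested.

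Of the 10 members, 6 fell after IGF2BP3 knockdown and 0 rose by edgeR's test. That count was also 0 at an unadjusted p of 0.05, with DESeq2 and with limma voom, and it was 1, TFDP2, with replicate number as a block and without shControl replicate 2. Those that fell were the 3 activators E2F1, E2F2 and E2F3, the 2 atypical repressors E2F7 and E2F8, and the partner TFDP1. The pocket-bound repressors E2F4 and E2F5, the polycomb-associated E2F6 and the partner TFDP2 did not pass. All 10 members were expressed well enough to be tested. Calls were made at a Benjamini-Hochberg adjusted p of 0.05 by the quasi-likelihood test of edgeR over 19767 genes, of which 51.5% passed, 25.6% lower and 25.9% higher, so a call for a single gene is common in this comparison. The median log2 fold change was -0.43 over the members and 0.01 over all tested genes. In bulk RNA, fewer cells holding a transcript and less of it in each cell cannot be told apart.

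**Figure D2:**
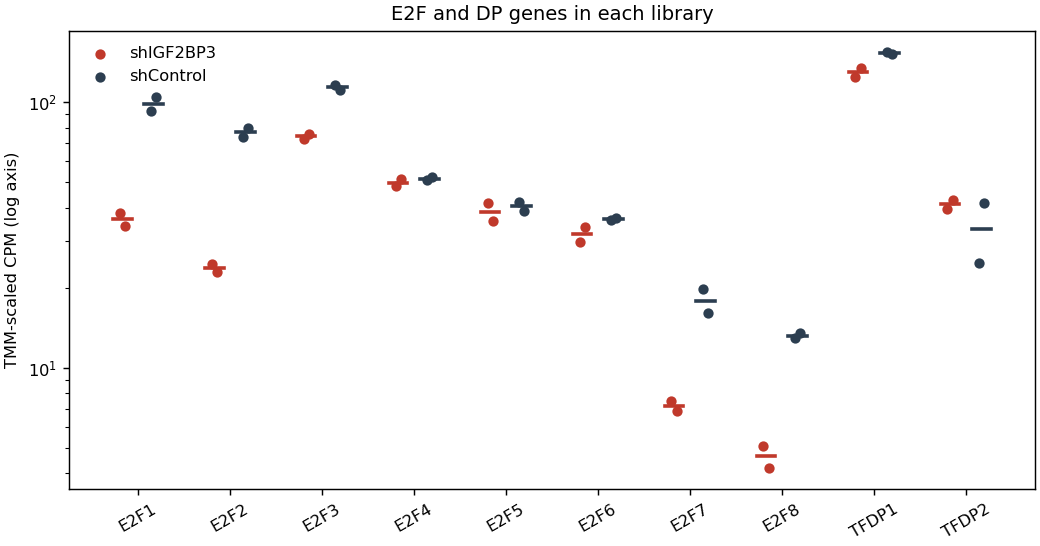
Level of each E2F and DP gene in each library, in TMM-scaled CPM on a log axis; points are libraries and bars are means of 2, with shIGF2BP3 on the left of each pair and shControl on the right. The groups do not overlap for E2F1, E2F2, E2F3, E2F6, E2F7, E2F8 and TFDP1, which was so for 74.5% of all tested genes. They overlap for E2F4, E2F5 and TFDP2. For TFDP2, 1 shControl library (24.8 CPM) lies below the other 3.

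E2F2, the activator named in the series title, showed the largest fall among the members. On GRCh38 it spans 23506430 to 23531220 of chromosome 1, minus strand (ENSG00000007968). It stood at 24.7 and 22.9 CPM in the shIGF2BP3 libraries, against 73.9 and 80.0 CPM in the shControl libraries. Both knockdown libraries were far below both controls. The mean in shIGF2BP3 was 30.9% of that in shControl, with a log2 fold change of -1.69 (SE 0.10, 95% interval -1.90 to -1.49, adjusted p = 1.32e-10 by edgeR's quasi-likelihood test). Of all tested genes, 3.77% had a lower fold change.

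E2F1, the founding member of the family, which can also drive apoptosis, fell nearly as far. It spans 33675683 to 33686404 of chromosome 20, minus strand (ENSG00000101412). Levels were 38.2 and 34.3 CPM in shIGF2BP3, against 92.7 and 104.6 CPM in shControl, without overlap. The log2 fold change was -1.45 (SE 0.09, 95% interval -1.64 to -1.25, adjusted p = 6.267e-10 by edgeR's quasi-likelihood test). The interval overlaps that of E2F2.

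E2F3, whose locus makes a long and a short isoform from separate start sites, fell less than the other activators. It spans 20401906 to 20493715 of chromosome 6, plus strand (ENSG00000112242). Its levels were 72.8 and 76.1 CPM in shIGF2BP3 and 116.3 and 111.0 CPM in shControl, and the groups did not overlap. The log2 fold change of -0.61 (SE 0.08, 95% interval -0.77 to -0.45) had an adjusted p of 2.793e-06 by edgeR's quasi-likelihood test. The interval lies wholly above those of E2F1 and E2F2. Counts per gene do not separate the isoforms, and the intronic transcript E2F3-IT1 held at most 7 counts in a library.

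E2F7 and E2F8, which repress E2F1 and other S-phase genes, were the least abundant E2F genes and fell about as far as the activators E2F1 and E2F2. E2F7 (ENSG00000165891, minus strand of chromosome 12, 77021247 to 77065580) had 213 and 188 counts in shIGF2BP3 and 531 and 501 counts in shControl. Its levels of 7.52 and 6.85 CPM in shIGF2BP3 lay below those of 19.7 and 16.0 CPM in shControl. Its log2 fold change was -1.30 (SE 0.17, 95% interval -1.67 to -0.94, adjusted p = 5.318e-06 by edgeR's quasi-likelihood test). E2F8 (ENSG00000129173, minus strand of chromosome 11, 19224063 to 19241620) had 144 and 115 counts in shIGF2BP3 and 347 and 423 counts in shControl. Scaled, these were 5.08 and 4.19 CPM in shIGF2BP3, below both shControl levels of 12.9 and 13.5 CPM. The log2 fold change of E2F8 was -1.51 (SE 0.19, 95% interval -1.92 to -1.10, adjusted p = 3.445e-06 by edgeR's quasi-likelihood test).

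E2F4 and E2F5, the partners of pocket proteins in resting cells, showed no change past the test. E2F4 (ENSG00000205250, plus strand of chromosome 16, 67192169 to 67198918) stood at 48.2 and 51.3 CPM in shIGF2BP3 and 50.7 and 52.3 CPM in shControl. These groups overlapped, and the log2 difference of -0.05 had a 95% interval of -0.24 to 0.14. E2F5 (ENSG00000133740, plus strand of chromosome 8, 85177225 to 85217158) stood at 41.7 and 35.8 CPM in shIGF2BP3 and 42.1 and 38.9 CPM in shControl. Its groups overlapped as well, and its log2 difference was -0.06 with a 95% interval of -0.28 to 0.16. The signs of both differences turned positive when libraries were scaled by their totals alone, at 0.030 for E2F4 and 0.021 for E2F5. E2F5 shares 969 exonic bases with C8orf59 on the opposite strand, which held 583 and 582 counts after knockdown (shIGF2BP3) and 636 and 678 with the control hairpin (shControl), so its counts are uncertain if strand was not used.

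E2F6 (ENSG00000169016, minus strand of chromosome 2, 11444375 to 11466177) lacks the part that binds pocket proteins and acts with a polycomb complex. It stood at 29.7 and 34.0 CPM in shIGF2BP3 and 35.9 and 36.7 CPM in shControl. The groups did not overlap, which was so for 74.5% of all tested genes. The log2 difference of -0.19 (95% interval -0.42 to 0.03) did not pass edgeR's quasi-likelihood test (adjusted p = 0.1459). Reads may be shared with its pseudogenes, of which E2F6P1 held the most, with 30 and 32 counts after knockdown (shIGF2BP3) against 45 and 46 with the control hairpin (shControl), beside 841 to 1149 counts for E2F6 itself.

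TFDP1 (ENSG00000198176, plus strand of chromosome 13, 113584721 to 113641470) encodes DP1, the main partner of the E2F factors that need one. Its levels of 124.5 and 134.5 CPM in shIGF2BP3 lay below the 154.3 and 152.0 CPM in shControl. The fall was small, with a log2 fold change of -0.24 (SE 0.07, 95% interval -0.39 to -0.09, adjusted p = 0.008365 by edgeR's quasi-likelihood test). This call was lost when shIGF2BP3 replicate 1 was left out (adjusted p of 0.1151 by edgeR) and with libraries scaled by their totals alone (adjusted p = 0.06194, edgeR).

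TFDP2 (ENSG00000114126, minus strand of chromosome 3, 141944428 to 142149544), which encodes the partner DP2, stood at 39.6 and 42.9 CPM in shIGF2BP3 and 24.8 and 41.9 CPM in shControl. The shControl libraries differed from each other more than the group means did, with 668 counts in replicate 1 and 1311 in replicate 2. The log2 difference was 0.29 with a 95% interval of -0.58 to 1.17, the widest among the members. A single shControl library decided its value, which was -0.023 without shControl replicate 1 and 0.72, past the test, without shControl replicate 2 (adjusted p = 2.435e-06, edgeR). With replicate number as a block it was 0.33 and passed (adjusted p = 0.009712, edgeR), although the numbers are not known to pair the libraries. TFDP3, a DP gene on the X chromosome, had 0 counts in all 4 libraries.

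**Figure D3:**
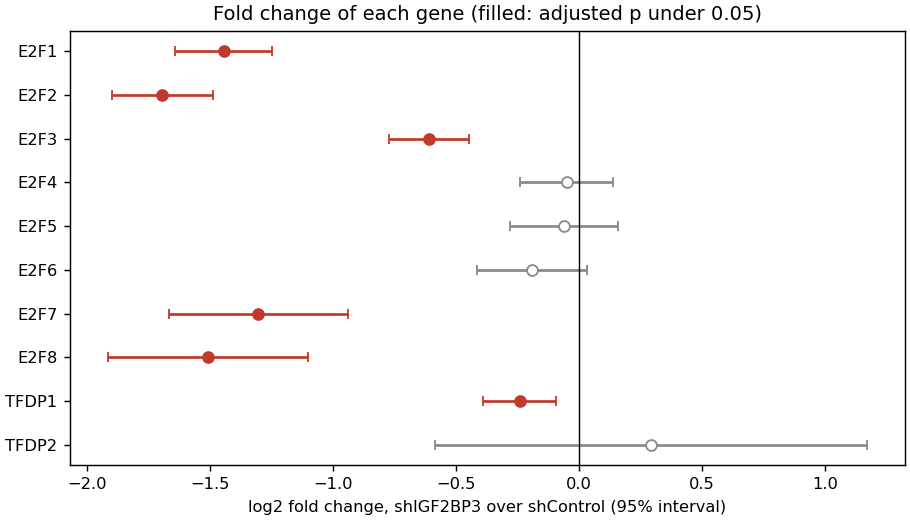
Log2 fold change of each E2F and DP gene, shIGF2BP3 over shControl, with its 95% interval from edgeR's quasi-likelihood fit; filled points passed at an adjusted p of 0.05. E2F1, E2F2, E2F7 and E2F8 lie between -1.69 and -1.30, E2F3 and TFDP1 fell less, and the interval of TFDP2 spans -0.58 to 1.17.

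Ratios of counts within a library do not depend on how libraries are scaled. The ratio of E2F2 to E2F1 was 0.645 and 0.668 in shIGF2BP3 and 0.798 and 0.765 in shControl, lower in both knockdown libraries. E2F2 to E2F3 was 0.339 and 0.301 in shIGF2BP3 against 0.636 and 0.721 in shControl, and E2F2 to E2F4 was 0.512 and 0.447 in shIGF2BP3 against 1.46 and 1.53 in shControl. With 2 libraries a group an exact permutation test cannot go below p = 0.333, two-sided, and these 3 ratios gave that value. For the atypical repressors set against E2F1, no difference past the spread was seen. E2F8 to E2F1 was 0.133 and 0.122 in shIGF2BP3 and 0.139 and 0.129 in shControl (exact permutation p = 0.667, two-sided), and E2F7 to E2F1 was 0.197 and 0.200 in shIGF2BP3 and 0.213 and 0.153 in shControl (exact permutation p = 1.00, two-sided). The groups overlapped for both of these ratios.

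Levels of different genes were compared per length, in TPM, a length-corrected measure, over merged exons of GENCODE release 29. In shIGF2BP3 the E2F genes ranked as E2F1 at 49.3 ± 3.58, E2F3 at 49.1 ± 1.75, E2F4 at 47.3 ± 2.30, E2F6 at 26.7 ± 2.65, E2F5 at 22.3 ± 2.33, E2F2 at 14.9 ± 0.711, E2F7 at 3.88 ± 0.239 and E2F8 at 3.82 ± 0.503 TPM (SD, n = 2). In shControl the order was E2F1 at 127.3 ± 14.5, E2F3 at 70.9 ± 0.308, E2F4 at 46.4 ± 2.34, E2F2 at 45.5 ± 3.84, E2F6 at 28.8 ± 1.28, E2F5 between 21.6 and 22.4, E2F8 at 10.3 ± 0.641 and E2F7 at 9.12 ± 1.08 TPM (SD, n = 2). In shIGF2BP3 neighbouring genes in this order overlapped between libraries for E2F1 with E2F3, E2F3 with E2F4, and E2F7 with E2F8. In shControl they overlapped for E2F4 with E2F2 and for E2F8 with E2F7, and both libraries had more E2F1 than E2F3. With the longest transcript as the length, E2F4 came first in shIGF2BP3 at 51.6 ± 2.63 TPM, above E2F3 at 42.5 ± 1.61 and E2F1 at 39.3 ± 2.76 TPM, and E2F8 came above E2F7 (SD, n = 2). With that length in shControl, E2F4 at 48.3 and 51.7 TPM did not overlap E2F2 at 35.5 and 39.9 TPM, nor did E2F8 overlap E2F7. Under both lengths E2F2 ranked below E2F5 and E2F6 in shIGF2BP3 and above both in shControl. TFDP1 was at 117.9 ± 6.94 TPM in shIGF2BP3 and 132.0 ± 2.36 TPM in shControl, and TFDP2 at 11.8 ± 0.716 TPM in shIGF2BP3 and 9.09 ± 3.53 TPM in shControl (SD, n = 2).

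The E2F RNA pool was smaller and held a lower share of activators after knockdown. Summed over E2F1 to E2F8, it was 217.7 and 216.8 TPM in shIGF2BP3 and 345.6 and 374.8 TPM in shControl. E2F1, E2F2 and E2F3 made up 52.2 ± 1.01% of it in shIGF2BP3 and 67.6 ± 1.14% in shControl (SD, n = 2 each). Within this class the mean share of E2F1 was 22.7% in shIGF2BP3 and 35.3% in shControl, and that of E2F2 6.84% in shIGF2BP3 and 12.6% in shControl. The mean share of E2F3 was higher after knockdown, at 22.6% in shIGF2BP3 and 19.7% in shControl. E2F4 and E2F5 made up 32.0 ± 0.0844% in shIGF2BP3 and 19.0 ± 0.605% in shControl, although neither gene passed the test for a change. E2F6 held 12.3 ± 1.26% in shIGF2BP3 and 7.996 ± 0.104% in shControl, and E2F7 with E2F8 held 3.54 ± 0.330% in shIGF2BP3 and 5.40 ± 0.431% in shControl. DP to E2F transcripts stood at 0.571 and 0.624 in shIGF2BP3 and 0.396 and 0.388 in shControl. These shares describe RNA, have no test at 2 libraries a group, and shift with the length used for each gene.

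**Figure D4:**
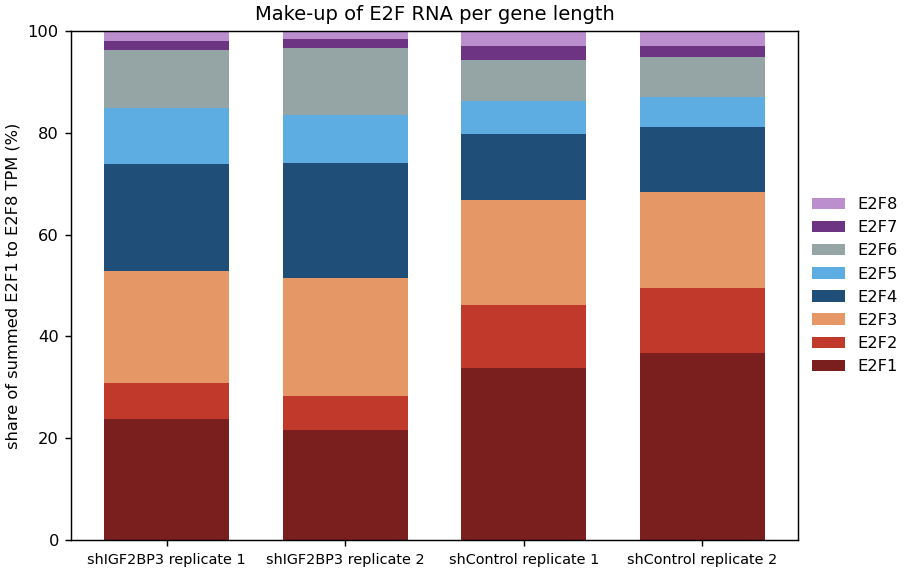
Share of each gene in the summed TPM of E2F1 to E2F8, in percent, 1 bar per library with shIGF2BP3 on the left. The activators E2F1, E2F2 and E2F3 at the bottom of each bar reach 52.9% and 51.4% in shIGF2BP3 and 66.8% and 68.4% in shControl.

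Genes that E2F factors are known to drive were mostly lower. Of 42 listed G1/S targets 41 fell, 0 rose and 1 did not pass, with a median log2 fold change of -1.54 beside 0.01 over all tested genes. By the same test 25.6% of all tested genes fell. CDK1, the kinase that starts mitosis, fell by 2.08 on the log2 scale (55.5 ± 1.20 CPM in shIGF2BP3 and 235.5 ± 6.82 CPM in shControl; SD, n = 2 each). TK1, which salvages thymidine for DNA, had a log2 fold change of -3.12. PCNA, the sliding clamp of DNA polymerase, was at -1.85 and MCM2, a subunit of the replicative helicase, at -1.70. The member that did not pass was CCNE1, a cyclin of the G1/S step, at 10.3 ± 1.16 CPM in shIGF2BP3 and 9.07 ± 0.275 CPM in shControl (SD, n = 2 each). An E2F word stood upstream of 16 of the 36 target genes with a promoter entry (44.4%), against 3.4% of all genes with one. The list was made of known E2F targets, so this share tells nothing of the knockdown. Such genes are also low in cells that do not divide, and whether their fall follows that of the E2F genes was not tested.

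The pocket proteins that hold E2F factors in check fell in part. RBL2, the partner of E2F4 in resting cells, stood at 37.8 ± 1.37 CPM in shIGF2BP3 and 91.0 ± 7.85 CPM in shControl (log2 -1.26, SE 0.09). RBL1, itself an E2F target, fell by 0.89. RB1 at 68.1 ± 4.44 CPM in shIGF2BP3 and 75.7 ± 0.853 CPM in shControl did not pass (SD, n = 2 each). Among 8 genes of the MuvB core, which joins E2F4 and RBL2 in the DREAM repressor, and its later partners, 4 fell, 1 rose and 3 did not pass. The shares over all tested genes were 51.5% past the test, 25.6% lower and 25.9% higher. FOXM1 and MYBL2, which act with MuvB at mitotic genes, fell with log2 fold changes of -1.88 and -1.94, RBBP4 with -0.55 and LIN9 with -0.91. LIN52, named after its value was seen, rose by 0.58.

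Kinases and cyclins that free E2F factors from pocket proteins fell in 6 of 7 tested cases. CCNE1, also counted among the G1/S targets, did not pass. Log2 fold changes were -1.32 for CDK4, -1.35 for CDK2, -0.59 for CCND3 and -0.30 for CDK6. Inhibitors of these kinases had 3 lower, 0 higher and 3 not passing of 6 tested, with CDKN2C, which blocks CDK4 and CDK6, at -1.32 and CDKN1C at -1.97. By comparison 51.5% of all tested genes passed, and 25.6% were lower. All 5 listed genes of E2F protein turnover fell, with log2 fold changes of -2.10 for CCNF, a cyclin that directs E2F factors to degradation, and -1.43 for CCNA2, whose kinase phosphorylates E2F1 and DP1. FZR1 and CDC20, activators of the anaphase-promoting complex, were at -1.35 and -2.34.

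The E2F6 polycomb complex had no common direction. Of its 12 listed genes 6 fell, 4 rose and 2 did not pass, against 25.6% lower and 25.9% higher over all tested genes. Log2 fold changes were -1.29 for WDR5, -0.75 and -0.66 for the deacetylases HDAC1 and HDAC2, and -0.41 for CBX3, a heterochromatin protein. The genes that rose, named after their values were seen, were L3MBTL2 (0.46), RNF2 (0.39), RING1 (0.71) and YAF2 (0.28). The count of 6 lower genes became 4 with library totals alone, without the filter on low counts, without shIGF2BP3 replicate 1 or without shControl replicate 1, and 5 with DESeq2. The count of 4 higher genes became 2 with DESeq2, 2 without the filter on low counts, 1 without shIGF2BP3 replicate 1 and 2 without shIGF2BP3 replicate 2. Of 4 germline genes that E2F6 keeps silent in mouse, SLC25A31 and MAEL had 0 counts in all 4 libraries. STAG3 at 6.44 ± 1.02 CPM in shIGF2BP3 and 7.58 ± 2.11 CPM in shControl, and SMC1B at 0.536 ± 0.140 CPM in shIGF2BP3 and 0.6998 ± 0.727 CPM in shControl, did not pass (SD, n = 2 each).

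Apoptosis genes that E2F1 can activate were split, with 3 higher, 3 lower and 3 not passing of 9. Over all tested genes 25.9% were higher and 25.6% lower. TP73, a p53 relative, fell by 1.40 on the log2 scale and PMAIP1, which encodes NOXA, had a log2 fold change of -0.79. The other lower gene was HRK (-1.37), named after its value was seen, at 26 and 9 counts in shIGF2BP3 and 59 and 36 counts in shControl. Its call was lost with library totals alone, without the filter on low counts, with DESeq2, without shIGF2BP3 replicate 2 and without shControl replicate 1, where 2 genes of the list were lower.

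**Figure D5:**
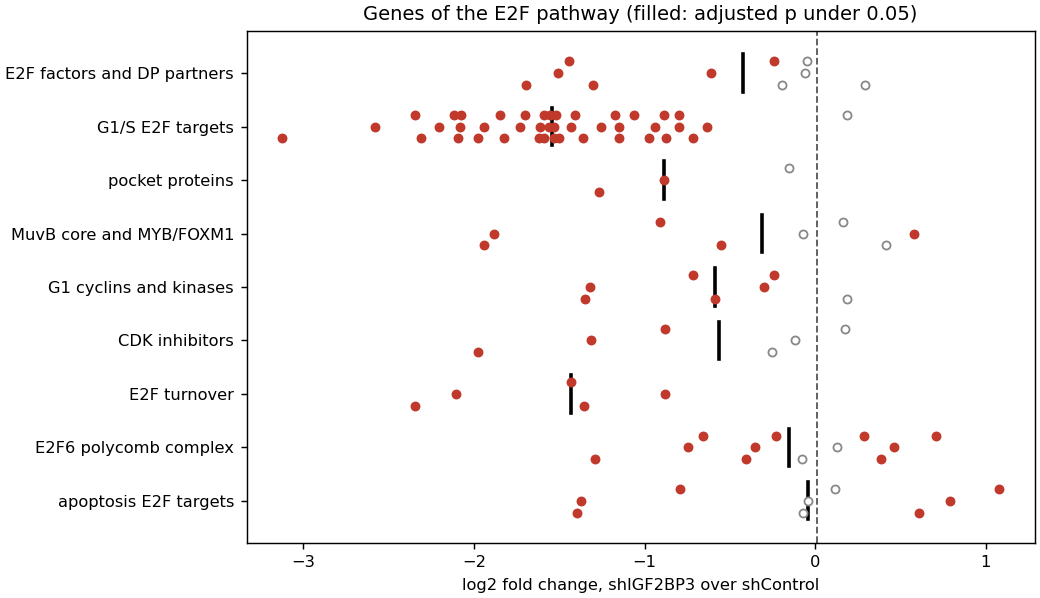
Log2 fold change of each tested gene of 9 lists of the E2F pathway, shIGF2BP3 over shControl; filled points passed edgeR's quasi-likelihood test at an adjusted p of 0.05, black bars are list medians and the dashed line is the median of all tested genes (0.01). The G1/S targets lie below 0 except CCNE1, while the E2F6 complex and the apoptosis targets spread to both sides.

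Regulators of the E2F genes themselves also differed between the groups. MYCN, which activates E2F genes and is amplified in this line, was at 4074 ± 159.9 CPM in shIGF2BP3 and 4742 ± 150.5 CPM in shControl (SD, n = 2 each). Its log2 fold change of -0.22 (adjusted p = 0.004495, edgeR) lost its call without shIGF2BP3 replicate 2 (adjusted p = 0.08568, edgeR). MYC, a related activator, rose to 4.82 ± 1.17 CPM in shIGF2BP3, against 0.300 ± 0.153 CPM in shControl, and remained far below MYCN. MIR17HG, the host transcript of microRNAs that bind E2F1, E2F2 and E2F3 mRNAs, fell by 0.93. The part of these changes in the E2F values was not tested.

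The profile of E2F2 over the 4 libraries was set against 13260 other tested genes, using log2 CPM centred on each gene's mean. The nearest were H19, an imprinted noncoding RNA, at a root mean square difference of 0.0241, KLHDC3 at 0.0271, GINS4, a subunit of the replicative helicase, at 0.0321, HDHD2 at 0.0325 and ZYG11A at 0.0335. Their log2 fold changes lay between -1.75 and -1.64. With 2 groups of 2, a small difference of this kind mainly means a similar fold change.

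The m6A mark is laid mostly within words such as GGACT, so the members' transcripts were searched for that word in GENCODE release 29. The E2F2 transcript of 5191 bases held 8, of which 6 lay in the 3′ UTR and 1 in the coding part. Its density was 1.54 per kilobase, against a median of 0.939 over 19666 coding transcripts, of which 78.9% had a lower density. The coding site of E2F2, on chromosome 1 and with the word in capitals, is shown because the series title concerns m6A in E2F2 mRNA.
E2F2 coding site: gcccgacaGGACTgaggacaa

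The densities are given as a description beside the fold changes. E2F8 (1.42 per kilobase) and E2F1 (1.20), which fell, lay above the median. So did E2F4 (1.43) and E2F5 (1.16), which did not pass the test. E2F7 (0.697) and E2F3 (0.632), which also fell, lay below the median, and TFDP1, with a transcript of 2648 bases, held 0. E2F6 (0.932) and TFDP2 (0.507), which did not pass, lay below the median too. A word is not a mark, and m6A was not measured here.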

How the data were processed

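RNA was sequenced from 2 shIGF2BP3 and 2 shControl libraries of SK-N-BE(2) cells, made with TRIzol and an Illumina TruSeq kit per the labels' protocols. The authors deposited whole-number counts per gene; the submitters' processing notes list HISAT2 2.2.0, StringTie and hg38. Annotation release, strandedness and counting rule: not given in the sources used here. Counts made with StringTie would be estimates from coverage, and values of overlapping genes are uncertain.

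Symbols came from a gene name table for 56105 of 64252 identifiers and from GENCODE release 29 for 486. Counts were filtered by filterByExpr (smallest count 10), scaled by TMM and tested with edgeR 4.0.16 in R 4.3.3 (robust quasi-likelihood, Benjamini-Hochberg adjusted p under 0.05), without a replicate block. DESeq2 1.42.0 and limma 3.58.1 served as alternatives. TPM were computed here from the counts and merged exon lengths of 56591 genes. A count of 0 allows up to 3 counts, at most 0.111 CPM, which covers counting error only. The intervals of fold changes come from edgeR's quasi-likelihood fit and include the spread between libraries, which may be technical only. Replicates differed by more than sampling noise (chi-square per degree of freedom 7.26 within shIGF2BP3, 8.43 within shControl, 146.0 to 152.7 between groups). On counts simulated for this comparison over 19228 genes, 18 of 67 changes of 1.5-fold, 63 of 67 of 2-fold and 66 of 66 of 4-fold were recovered, with 10 false calls. No other genes were changed there, against 51.5% called in the data, and all genes shared a common dispersion. These rates therefore do not carry over to the data.

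Members and lists were chosen with earlier results of these data known. Named genes are the members, 5 genes nearest to E2F2, up to 4 genes per list by smallest p, IGF2BP3, MYCN, MYC and copies or overlapping genes with counts; some genes that this rule takes are not reported here. The markers, targets and other genes formed 14 lists with 125 entries for 120 distinct genes. Some lists therefore share genes, and their counts are not independent. Promoter words were sought in RefSeq sequences.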

Additional observations from a re-analysis of the deposited data

How the results depend on the processing

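The falls of E2F1, E2F2, E2F3, E2F7 and E2F8 kept their direction and their call under other scalings (RLE and library totals), without the low-count filter, with DESeq2, with limma voom, with a replicate block and without each library. Without single libraries E2F2 lay between -1.75 and -1.64, E2F1 between -1.53 and -1.37, E2F3 between -0.66 and -0.57, E2F7 between -1.47 and -1.16 and E2F8 between -1.65 and -1.38. TFDP1 lay between -0.30 and -0.18 and lost its call at -0.16 with library totals alone. E2F4 (0.030) and E2F5 (0.021) changed sign with library totals, and E2F5 ranged from -0.174 to 0.048 without single libraries, never past the test. TFDP2 ranged from -0.023 to 0.716 without single libraries. Leaving out a library leaves a lone sample in its group, which is assumed to vary like the other group. The replicate block called it at 0.33 (adjusted p = 0.009712, edgeR), so 1 member was then higher, and 0 to 1 were without single libraries. Same-numbered libraries deviated with a correlation of 0.021, and replicate numbers were therefore not taken for pairs; the replicate block called 10509 genes, against 10178 without it, 8539 with DESeq2, and 8800 to 9442 without single libraries. Scaling by library totals moved the median of all genes to 0.09 and the split of calls to 4405 lower and 5739 higher, against 5058 lower and 5120 higher. Higher genes of the E2F6 complex numbered 2 without the filter and 2 with DESeq2, and 1 to 3 without single libraries. STAG3 (-0.493 to 0.065 without single libraries) and SMC1B (0.048 with limma voom, -1.170 to 1.494 without single libraries) changed sign without a call. The cause was not tested in any of these. With the longest transcript as the length, the activators' share was 47.4% in shIGF2BP3 and 63.4% in shControl, that of E2F4 and E2F5 36.5% in shIGF2BP3 and 22.5% in shControl, that of E2F6 8.54% in shControl, DP to E2F 0.725 in shIGF2BP3 and 0.497 in shControl, and TFDP1 to TFDP2 11.7 in shIGF2BP3, by construction. E2F8 had the fewest counts of the members, 115 to 423. A missing call for E2F4, E2F5, E2F6 or TFDP2 does not show that these genes were unchanged. The intervals from edgeR's fit were -0.239 to 0.139 for E2F4, -0.281 to 0.160 for E2F5 and -0.416 to 0.032 for E2F6. For TFDP2 the interval of -0.584 to 1.169 was far wider. Changes within these bounds remain possible, and the bounds rest on a spread between libraries that may be technical only.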
